A study of Mus musculus with 10 samples.

Results

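Expression of the genes that present antigen on major histocompatibility complex (MHC) molecules was followed in 10 mouse lung tumors. The genes were chosen by symbol from the joint table of counts. All 10 were present among its 39017 rows, and all 10 were among the 16216 genes with enough counts to be tested. The class I members were B2m, H2-K1, H2-D1, Tap1 and Nlrc5, and the class II members were H2-Aa, H2-Ab1, H2-Eb1, Cd74 and Ciita. Both classes were compared between control tumors and tumors with a floxed gene of the glucose transporter Glut1, and then among the tumors themselves.

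The 5 KP libraries came from lung adenocarcinomas of the control group, and the 5 KPG1 libraries came from tumors of mice homozygous for a floxed allele of Slc2a1, the gene of Glut1. The control libraries carry a genotype label of heterozygous for that allele and a description of wild type, and both labels are given here because they differ. All animals were males on a C57BL/6 background. In both groups Cre came from an adenovirus instilled into the trachea, under the promoter of surfactant protein C (SPC), so that recombination was directed to cells with an active SPC promoter, such as alveolar type 2 cells. Tumors were dissected 18 weeks and 6 days after initiation. Anti-CD45 beads were used to deplete leukocytes, and RNA was taken from the CD45-negative fraction, which still holds stromal and endothelial cells beside tumor cells. The labels do not say whether the tumors of a group came from separate mice, so p-values measure the spread between these samples.

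Class I molecules are carried by nearly all nucleated cells. Their heavy chains, here H2-K1 and H2-D1, pair with beta-2-microglobulin, the product of B2m, and are loaded with peptides that the TAP transporter moves from the cytosol into the endoplasmic reticulum. Class II molecules are typical of dendritic cells, B cells and macrophages, but alveolar type 2 cells also make them without inflammation. An alpha and a beta chain assemble on the invariant chain Cd74 and exchange it for peptide in endosomes. The coactivators Nlrc5, for class I, and Ciita, for class II, do not bind DNA on their own. They are recruited to a promoter module of W/S, X1, X2 and Y boxes that is held by RFX, CREB-type and NF-Y factors, and interferon gamma induces both.

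The promoter module is shown first. The class II chains and Cd74 varied together across tumors, as did B2m, H2-K1 and H2-D1. The part of the promoter module in this was not tested. Promoter sequences from RefSeq on GRCm38.p6 were found for 6 of the 10 members, B2m, H2-K1, H2-D1, Tap1, H2-Aa and H2-Eb1. The 200 bases before the annotated start were searched on both strands for CCAAT, the core of the Y box, for TGACG, the core of a CREB-type site as in the X2 box, and for AANNGAAA, a core of the site of interferon regulatory factors. Matches are in capitals below, and ATTGG is CCAAT read on the other strand. Matches of TGACG on opposite strands can overlap, as in H2-Aa. The starts are those of RefSeq and can differ from the gene bounds given further on, which are from GENCODE M21. For H2-D1 the whole window lies within those bounds.
B2m, chr2:122147487-122147686, plus strand: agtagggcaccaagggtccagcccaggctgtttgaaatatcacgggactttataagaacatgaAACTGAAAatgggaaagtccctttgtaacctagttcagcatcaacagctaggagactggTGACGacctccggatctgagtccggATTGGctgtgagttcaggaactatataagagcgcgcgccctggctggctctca
H2-K1, chr17:34000348-34000547, minus strand: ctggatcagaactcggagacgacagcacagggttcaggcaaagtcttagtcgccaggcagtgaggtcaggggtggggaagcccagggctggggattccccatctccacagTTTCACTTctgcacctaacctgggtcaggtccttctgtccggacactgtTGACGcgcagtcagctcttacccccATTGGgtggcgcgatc
H2-D1, chr17:35262894-35263093, plus strand: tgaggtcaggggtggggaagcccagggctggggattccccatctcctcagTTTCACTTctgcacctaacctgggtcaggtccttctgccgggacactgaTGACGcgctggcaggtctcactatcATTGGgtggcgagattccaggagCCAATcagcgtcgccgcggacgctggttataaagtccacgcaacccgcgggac
H2-Aa, chr17:34287824-34288023, minus strand: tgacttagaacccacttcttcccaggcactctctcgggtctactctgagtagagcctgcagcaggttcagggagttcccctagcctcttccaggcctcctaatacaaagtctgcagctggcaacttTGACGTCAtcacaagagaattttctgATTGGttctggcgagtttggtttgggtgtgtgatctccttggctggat
H2-Eb1, chr17:34305667-34305866, plus strand: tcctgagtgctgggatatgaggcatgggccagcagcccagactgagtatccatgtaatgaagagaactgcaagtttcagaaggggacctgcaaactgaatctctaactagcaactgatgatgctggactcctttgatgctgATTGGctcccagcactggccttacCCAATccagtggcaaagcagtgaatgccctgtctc

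In B2m, H2-K1 and H2-D1 the TGACG match started 25 bases before an ATTGG match, and in H2-Aa it started 26 bases before it. This arrangement of TGACG and ATTGG, at 25 or 26 bases on either strand, was held by 39 of 27025 promoters of the same length (0.144%). The spacing was chosen after the sequences were seen. In H2-Eb1, an ATTGG match and a CCAAT match were found without TGACG, and in Tap1, on chr17:34187356-34187555, a TGACG match was found without CCAAT. The AANNGAAA core was found in B2m, H2-K1 and H2-D1 and not in the windows of Tap1, H2-Aa and H2-Eb1. Among all 27025 promoters, 30.0% held CCAAT, 15.8% held TGACG and 17.2% held AANNGAAA. A match describes letters in a window and does not show binding.

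Libraries held between 32427029 and 49534284 counts. In KPG1 tumors Slc2a1 was 40.7 to 66.7 CPM (count per 1e+06 counts of the scaled library), below all KP tumors at 71.7 to 127 CPM, with a log2 fold change of -1.01 ± 0.20 (SE) and a Benjamini-Hochberg adjusted p of 0.0675 in limma-voom. Over all genes, 28 of 16216 passed the adjusted threshold of 0.05, 10 higher and 18 lower in KPG1. Of the cells that beads and dissection should leave, Epcam marked epithelium at 333 to 626 CPM and Pecam1 marked endothelium at 68.9 to 306 CPM. Fewer cells of a type and less RNA per cell cannot be told apart in these bulk samples.

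The members differed widely in level. On the scale of CPM per kilobase of exon, averaged over the 10 libraries, Cd74 was at 1178 ± 484 (SD), rank 9 among 16044 tested genes with a length. B2m followed at 319 ± 138, H2-D1 at 209 ± 92.2 and H2-K1 at 166 ± 78.0. The class II chains came next, with H2-Eb1 at 149 ± 74.4, H2-Aa at 130 ± 68.2 and H2-Ab1 at 98.8 ± 41.3. Tap1 was at 5.91 ± 2.92, Ciita at 5.47 ± 1.65 and Nlrc5 at 0.728 ± 0.461 CPM per kilobase. Within a library, Cd74 exceeded B2m in 10 of 10 tumors, and H2-Ab1 exceeded Tap1 in 10 of 10, by 10.8-fold or more. H2-K1 exceeded H2-Eb1 in 6 of 10 tumors and Tap1 exceeded Ciita in 7 of 10, so the order of those neighbors was not the same in every tumor. Lengths were those of all annotated exons joined, which lowers the level of genes with long rarely used exons, and the similar sequences of class I chains make the split of reads between H2-K1, H2-D1 and their relatives uncertain.

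No member of either class differed between KPG1 and KP tumors beyond the spread between tumors. With limma-voom, 0 of 10 members passed the adjusted threshold, against 0.173% of all tested genes (0.0617% higher and 0.111% lower in KPG1). At an unadjusted p under 0.05 there were 0 of 10 members, against 11.6% of all tested genes (5.26% higher and 6.31% lower). The groups overlapped for 10 of 10 members, and 2.81% of all tested genes did not overlap. With the quasi-likelihood test of edgeR and with DESeq2, 0 of 10 members passed, against 0.247% and 3.46% of the genes with a value. The fitted value was higher in KPG1 for 10 of 10 members, against 52.7% of all tested genes, with a median log2 fold change of 0.28 against 0.02 over all tested genes. The members vary together across tumors, so these 10 values are not 10 separate observations. In edgeR and in DESeq2 the fitted values of Tap1 and Nlrc5 were below 0.

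Among class I members, B2m on chromosome 2 (mm10, 122147686 to 122153083) encodes the light chain shared by all class I molecules. It was at 144, 448, 201, 256 and 230.5 CPM in KP 1 to KP 5, and at 370.1, 488, 240.0, 179 and 191 CPM in KPG1 1 to KPG1 5. The groups overlapped, and KPG1 2 and KP 2 were the highest tumors. The log2 fold change was 0.18 ± 0.34 (SE), with a 95% interval of -0.55 to 0.92 and an adjusted p of 0.868 in limma-voom.

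H2-K1 (chromosome 17, 33996017 to 34000347) and H2-D1 (chromosome 17, 35262730 to 35267499) encode the 2 classical heavy chains measured here. H2-K1 was at 216, 797, 479, 384 and 415 CPM in KP 1 to KP 5 and at 735, 872, 349, 354 and 286 CPM in KPG1 1 to KPG1 5. H2-D1 was at 222, 833, 592, 338 and 535 CPM in the KP tumors and at 826, 889, 377, 421 and 354 CPM in the KPG1 tumors, in the same order. For both genes KP 2, KPG1 1 and KPG1 2 stood above the other 7 tumors and KP 1 was the lowest. The log2 fold changes were 0.15 ± 0.38 for H2-K1 and 0.21 ± 0.38 for H2-D1 (SE), with adjusted p of 0.909 and 0.870 in limma-voom.

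Tap1, on chromosome 17 (34187553 to 34197225), encodes one subunit of the peptide transporter. Its values were 10.6, 41.0, 29.4, 20.6 and 69.6 CPM in the KP tumors and 29.6, 39.5, 33.9, 29.1 and 20.4 CPM in the KPG1 tumors. KP 1 was the lowest and KP 5 the highest of all 10, so that the KPG1 tumors lay within the range of the KP tumors. The log2 fold change was 0.08 ± 0.42 (SE), with an adjusted p of 0.959 in limma-voom. Without KP 1 it was -0.28 and without KP 5 it was 0.41.

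Nlrc5, on chromosome 8 (94434356 to 94527272), was the least abundant member, with 65 to 499 counts per library. It was at 3.09, 13.5, 6.95, 6.63 and 1.49 CPM in the KP tumors and at 10.9, 8.40, 5.46, 2.54 and 2.85 CPM in the KPG1 tumors. Here KP 5 was the lowest of all tumors, although KP 5 was the highest for Tap1. The log2 fold change was 0.14 ± 0.59 (SE), with a 95% interval of -1.15 to 1.43, an adjusted p of 0.946 in limma-voom and -0.31 without KP 5. The intervals of the other class I members together spanned -0.84 to 1.04, so differences within each interval, in either direction, were not excluded here.

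**Figure D1:**
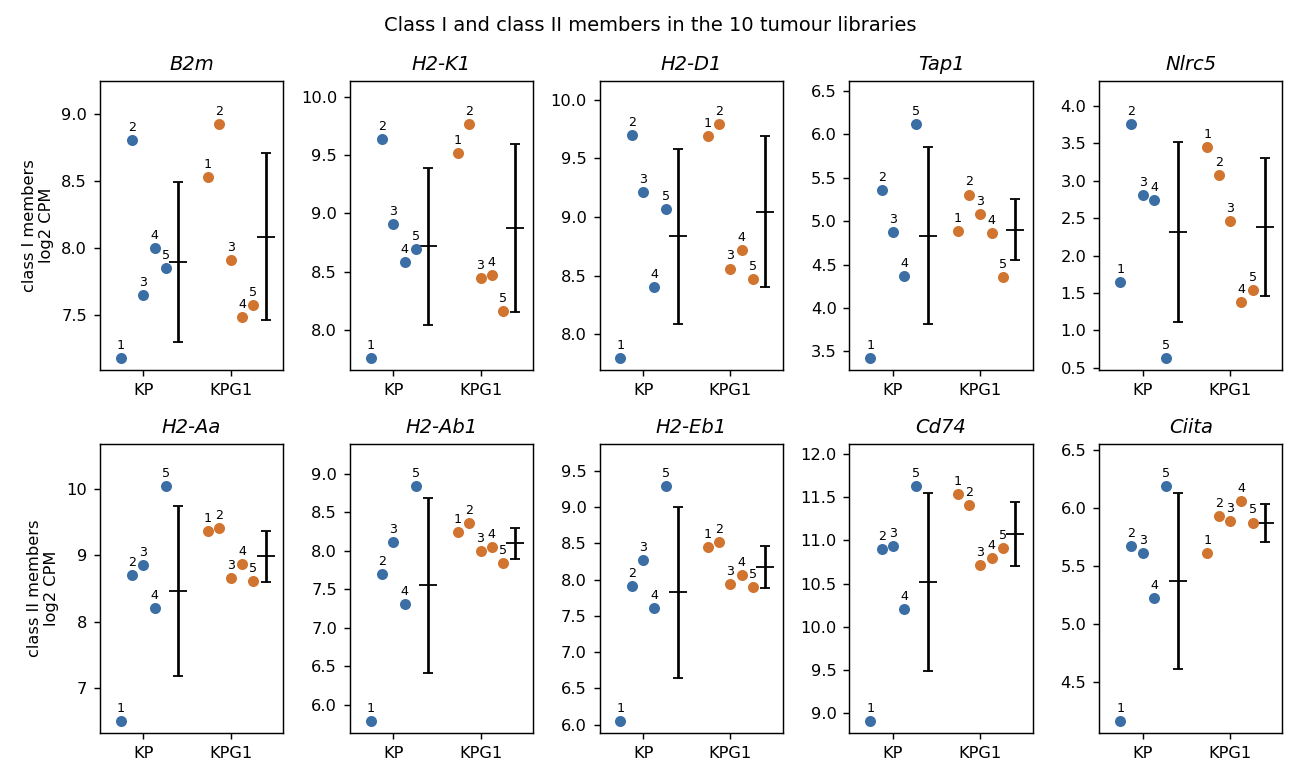
Level of each member as log2 CPM in the 10 libraries, with KP in blue and KPG1 in orange, the replicate number above each point, and the mean ± SD of 5 libraries in black. KP 1 is the lowest of all points for all 5 class II genes and KP 5 is the highest, while the KPG1 points lie between them.

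Class II members were abundant in this CD45-negative fraction. H2-Ab1 (chromosome 17, 34257689 to 34269419), the beta chain of I-A, was at 55.2, 208, 277, 159 and 457 CPM in the KP tumors and at 302, 329, 254, 264 and 229.5 CPM in the KPG1 tumors. The highest KP tumor was 8.28-fold above the lowest, and the highest KPG1 tumor was 1.43-fold above the lowest. The log2 fold change was 0.55 ± 0.44 (SE), with an interval of -0.43 to 1.52 and an adjusted p of 0.668 in limma-voom.

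H2-Aa (chromosome 17, 34282744 to 34287823), which encodes the alpha chain that pairs with H2-Ab1, was at 90.6, 419, 465, 294 and 1052 CPM in the KP tumors and at 662, 683, 404, 467 and 392 CPM in the KPG1 tumors. H2-Eb1 (chromosome 17, 34305867 to 34316674), the beta chain of I-E, was at 66.0, 239.9, 310.1, 195 and 624 CPM in the KP tumors and at 349, 366, 245, 268.5 and 238 CPM in the KPG1 tumors. C57BL/6 mice do not make the I-E alpha chain, and its gene, listed as H2-Ea-ps, had at most 3 counts in a library. KP 1 was the lowest and KP 5 the highest of all 10 tumors for both chains. The log2 fold changes were 0.52 ± 0.51 for H2-Aa and 0.35 ± 0.47 for H2-Eb1 (SE), with adjusted p of 0.735 and 0.816 in limma-voom.

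Cd74, the invariant chain, was at 479, 1905, 1965, 1184 and 3162 CPM in the KP tumors and at 2971, 2719, 1684.5, 1781 and 1931.5 CPM in the KPG1 tumors. KPG1 1 and KPG1 2 came within the range between KP 3 and KP 5, and the other 3 KPG1 tumors lay between KP 4 and KP 3. The log2 fold change was 0.56 ± 0.43 (SE), with an adjusted p of 0.645 in limma-voom.

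Ciita (chromosome 16, 10480059 to 10528418), the coactivator of class II genes, was at 17.8, 50.9, 48.8, 37.3 and 72.8 CPM in the KP tumors and at 48.9, 60.9, 59.0, 66.6 and 58.7 CPM in the KPG1 tumors. Its mean was 45.5 ± 20.1 CPM in KP and 58.8 ± 6.39 CPM in KPG1 (SD, n = 5). It had the smallest p of the 10 members, with a log2 fold change of 0.50 ± 0.30 (SE), an interval of -0.16 to 1.17, an unadjusted p of 0.123 and an adjusted p of 0.547 in limma-voom.

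The size of the class II difference depended on 2 control tumors, KP 1 and KP 5. Without KP 1 the log2 fold changes were 0.03 for H2-Aa, 0.11 for H2-Ab1, -0.09 for H2-Eb1, 0.16 for Cd74 and 0.20 for Ciita. Without KP 5 they were 0.90, 0.85, 0.70, 0.81 and 0.70, with adjusted p of 0.194 or more. With both left out, which was added after the data were seen, they lay between 0.23 and 0.38. In no alternative fit did a member pass the threshold.

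**Figure D2:**
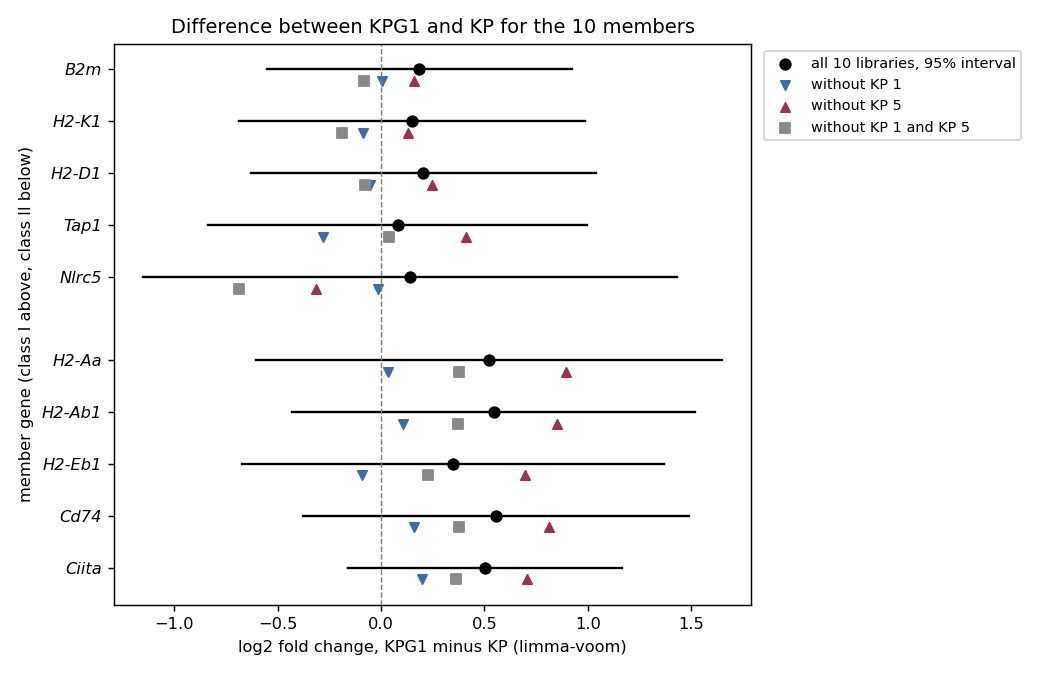
Log2 fold change of each member between KPG1 and KP on the horizontal axis, with black points and 95% intervals from limma-voom on 10 libraries, and colored marks for the same fit without KP 1, without KP 5 or without both. All 10 intervals cross 0, and the marks of the class II genes lie near 0 without KP 1.

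The spread among tumors was the main feature of the class II genes. The mean log2 CPM of H2-Aa, H2-Ab1, H2-Eb1 and Cd74 was 6.81, 8.80, 9.05, 8.33 and 9.95 in KP 1 to KP 5, and 9.40, 9.43, 8.83, 8.95 and 8.82 in KPG1 1 to KPG1 5. Its SD was 1.15 in KP and 0.31 in KPG1, and no test of the spread was made. Without KP 1 and KP 5, the 2 extremes of the group, the SD in KP was 0.36. Leaving out the extremes of a group lowers its SD. Over all tested genes, the median SD of single genes over all 5 tumors was 0.39 in KP and 0.26 in KPG1. The value of 0.36 is of a mean of 4 genes over fewer tumors, so it cannot be set against that median. Among all tested genes, the SD of the 4 genes in KP lay at percentiles 91.0 to 95.1, and in KPG1 at percentiles 36.5 to 67.2. KP 1 was the lowest and KP 5 the highest KP tumor for 5 of 5 class II members, against 11.9% of all tested genes. These 2 tumors were singled out by their class II values. The 5 members also vary together, so they are not separate observations, and the share is given as a description.

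The mean log2 CPM of the class I genes B2m, H2-K1, H2-D1 and Tap1 had a similar spread in both groups, from 6.53 to 8.38 in KP (SD 0.69) and from 7.14 to 8.45 in KPG1 (SD 0.55). For the 3 genes of the class I molecule itself, the SD lay at percentiles 72.6 to 81.4 in KP and 85.4 to 89.3 in KPG1.

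The class II chains and Cd74 varied together, and so did the genes of the class I molecule. Across the 10 libraries, Pearson's r of log2 CPM was 0.96 to 0.99 among H2-Aa, H2-Ab1, H2-Eb1 and Cd74, and 0.85 to 0.97 among B2m, H2-K1 and H2-D1. Between the 2 sets r was 0.44 to 0.80. Tap1 had r of 0.85 to 0.91 with the class II set and of 0.53 to 0.70 with the class I molecule. Nlrc5 had r of 0.59 to 0.74 with the class I molecule and of -0.02 to 0.14 with the class II set. These values share libraries and normalization and are given as a description.

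Ciita and H2-Ab1, a coactivator and a target, had r of 0.94 over 10 tumors (permutation p = 0.00093, adjusted p = 0.00744 over 8 relations) and Spearman's rho of 0.67 (adjusted permutation p = 0.154). With group means subtracted r was 0.94 (permutation p = 0.00173, adjusted p = 0.0138), and with 1 library left out at a time the relation passed the threshold in 8 of 10 cases. Without KP 1 and KP 4, the libraries farthest from the median of Ciita, r was 0.55. Without KP 1 alone r was 0.76 (adjusted permutation p = 0.105), and without KP 4 alone it was 0.94 (adjusted permutation p = 0.0782). With both KP 1 and KP 5 left out, r was 0.64 with an adjusted permutation p of 0.179. Whether it passed the threshold thus depended on KP 1 and on KP 4. Nlrc5 and H2-K1 had r of 0.72 (adjusted permutation p = 0.0808) and rho of 0.70 (adjusted permutation p = 0.154), and r was 0.91 without KP 5 and KPG1 4. Without KP 5 alone it was 0.865 (adjusted permutation p = 0.0117), so KP 5 decided whether this relation passed the threshold. H2-K1 and H2-Ab1 had r of 0.56 and rho of 0.55 (adjusted permutation p of 0.143 and 0.283), and r was 0.67 without KP 2 and KPG1 2.

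**Figure D3:**
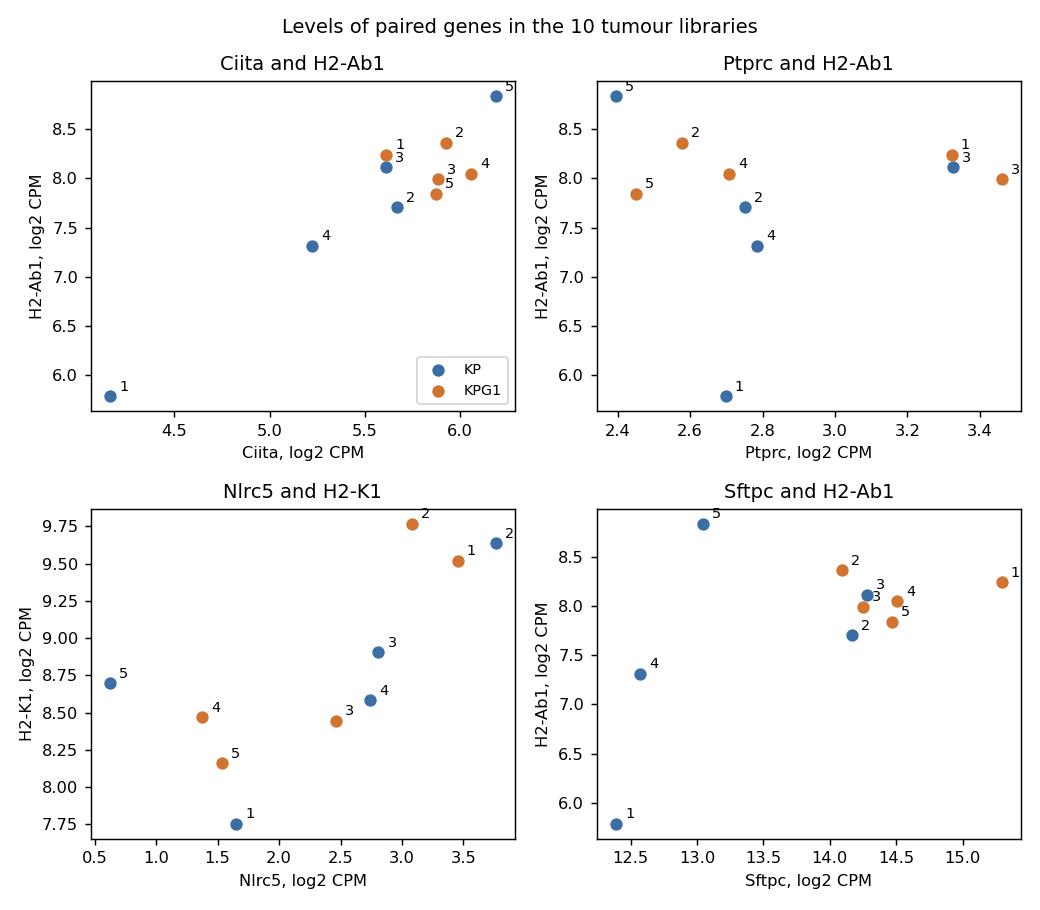
Levels of gene pairs as log2 CPM in the 10 libraries, with KP in blue, KPG1 in orange and replicate numbers beside the points. Ciita and H2-Ab1 lie along a line that ends at KP 1 and KP 5, Ptprc has no such line with H2-Ab1, KP 5 lies apart from the line of Nlrc5 and H2-K1, and KP 1 and KP 4 are low in both Sftpc and H2-Ab1.

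Leukocytes carry class II molecules, so their markers were set beside these values. Ptprc, the gene of CD45 itself, was at 5.21 to 9.97 CPM in KP and 5.41 to 10.96 CPM in KPG1. Its r was 0.05 with H2-Ab1 (adjusted permutation p = 0.904, rho -0.18, adjusted permutation p = 0.723) and 0.15 with H2-K1 (adjusted permutation p = 0.752, rho 0.09, adjusted permutation p = 0.811), and -0.09 and 0.37 without KP 3 and KPG1 3. The 12 leukocyte genes summed to 315 to 575 CPM in KP and 412 to 516 CPM in KPG1, of which Lcp1 alone was 269.8 to 535 CPM. This sum was highest of all 10 tumors in KP 5, at 575 CPM, and Lcp1 had r of 0.56 with H2-Ab1. The other 11 summed to 40.3 to 111 CPM in KP and 44.5 to 74.3 CPM in KPG1. Without Lcp1, KP 5 was thus the lowest of all 10, at 40.3 CPM, while it was the highest with Lcp1. Of the other 11 genes, Cd53 and Rac2 had r of 0.395 and 0.17 with H2-Ab1. Coro1a, Laptm5, Tyrobp, Itgb2 and Fcer1g had r of -0.24 (Coro1a) to -0.33 (Fcer1g) with it.

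Macrophage genes summed to 59.9 to 118 CPM in KP and 43.1 to 94.1 CPM in KPG1, with 9 of 9 tested and Csf1r at 6.87 to 19.0 CPM. Dendritic cell genes summed to 9.89 to 37.1 CPM in KP and 14.5 to 26.8 CPM in KPG1, and only 3 of 8 could be tested. Of these, Flt3 and Xcr1 had at most 11 and 4 counts in a library and were at 0 in 1 or more. Itgax and Zbtb46 of the same list were high enough to test. The low counts of Flt3 and Xcr1 thus do not show that dendritic cells were absent. B cell genes summed to 7.50 to 18.4 CPM in KP and 10.3 to 15.5 CPM in KPG1, with Ms4a1 and Pax5 at no more than 11 and 3 counts in a library and Cd79b the largest part. This sum was lowest of all 10 tumors in KP 1 and highest in KP 5, as class II was. Cd79b had r of 0.86 with H2-Ab1 and the macrophage gene Cd68 had 0.61, both named after their values were seen. Other macrophage genes went the other way. Itgam, C1qb, Csf1r, C1qa, Mrc1, C1qc and Adgre1 had r of -0.62 (Itgam) to -0.31 (Adgre1) with H2-Ab1. The part of these leukocyte genes in the class II levels was not tested. T and NK cell genes summed to at most 1.54 CPM, with 0 of 7 testable and Cd3e at 0 to 8 counts. Over these lists 0 genes passed the adjusted threshold in limma-voom. At an unadjusted p under 0.05 there was 1, the integrin gene Itgam, with a log2 fold change of -1.04 and an adjusted p of 0.263, named after its values were seen. In the remaining marker lists, endothelial genes summed to 264 to 772 CPM in KP and 398 to 1166 CPM in KPG1, fibroblast genes to 117 to 285 and 184 to 314 CPM, and epithelial genes to 4491 to 6121 and 3436 to 4119 CPM, with 0 genes past the adjusted threshold. The epithelial sum was lower in all KPG1 tumors than in any KP tumor. At an unadjusted p under 0.05, 3 of 6 epithelial genes were lower, against 6.31% of all tested genes, and 2 of 6 did not overlap and were lower, against 1.76%. The lowest p was that of the keratin gene Krt18, with a log2 fold change of -0.87 ± 0.15 (SE) and an adjusted p of 0.0501 in limma-voom, named after its values were seen. KP 5 was the lowest KP tumor for 7 of 8 endothelial genes, against 30.7% of all tested genes. It was the highest for 5 of 5 class II members, against 30.8%, but KP 5 was singled out by its class II values. The genes of each list share the same tumors, so such counts are not of separate observations.

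Markers of alveolar type 2 cells were lowest in KP 1, as class II was. Their 9 genes summed to 18454 CPM in KP 1, 60942 in KP 2, 56746 in KP 3, 28101 in KP 4 and 63075 in KP 5, and to 48044 to 87974 CPM in KPG1. KP 1 was the lowest KP tumor for 9 of 9 of these genes, against 22.4% of all tested genes, and KP 5 the highest for 7 of 9, against 30.8%. The median log2 fold change of the list was 0.57, with 0 of 9 past the adjusted threshold and 3 of 9 at an unadjusted p under 0.05, all of them higher, against 5.26% of all tested genes. Of the 9, 1 did not overlap between the groups and was higher in KPG1, against 1.05%. The 9 genes mark 1 cell type in the same tumors, so they are not separate observations. Sftpc, the surfactant gene whose promoter drove Cre, was at 5366 to 19879 CPM in KP and 17466 to 40153 CPM in KPG1 and had r of 0.56 with H2-Ab1 (adjusted permutation p = 0.143, rho 0.35, adjusted permutation p = 0.441). Without KP 1 and KP 4 that r was -0.54, and without KP 5 alone it was 0.82 (adjusted permutation p = 0.0117), so its size and direction rested on those 3 tumors. The other 8 genes of the list had r of 0.73 (Napsa) to 0.95 (Slc34a2) with H2-Ab1, given as a description with no test. The part of alveolar type 2 identity in the class II differences was not tested.

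The other genes of the pathway were described by lists. Over all tested genes, 0.173% passed the adjusted threshold in limma-voom, and 11.6% had an unadjusted p under 0.05. Of the genes that supply peptides to class I, 0 of 12 passed the adjusted threshold or an unadjusted p under 0.05 in limma-voom, and the fitted values of 12 of 12 were above 0, against 52.7% of all tested genes, with a median log2 fold change of 0.13. The lowest p was that of Erap1, a peptidase that trims peptides in the endoplasmic reticulum, with 0.23 ± 0.12 (SE) and an adjusted p of 0.504. Psme1, a proteasome activator, and the loading factors Tapbp and Tapbpl had log2 fold changes of 0.18, 0.23 and 0.17, with adjusted p of 0.696 to 0.759. Tap2, the partner of Tap1, was at 13.4 to 58.7 CPM in KP and 20.8 to 48.2 CPM in KPG1, with a log2 fold change of 0.27 and an adjusted p of 0.827. KP 1 was the lowest KP tumor for 8 of 12 of these genes, against 22.4% of all tested genes. KP 5 was the highest for 9 of 12, against 30.8%. Class II and Tap1 had the same extremes, so these 12 values are not separate observations. Psmb9, an immunoproteasome subunit that overlaps Tap1 on the opposite strand, was at 2.89 to 22.1 CPM in KP and 5.70 to 17.9 CPM in KPG1.

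Of the other class I chains, 16 of 24 could be tested and 3 had no row. None of the 16 passed the adjusted threshold in limma-voom, 8 were fitted higher and 8 lower in KPG1, and 1 had an unadjusted p under 0.05. That gene was H2-Q10, best known as a liver class I chain, with a log2 fold change of -1.43 ± 0.47 (SE), an unadjusted p of 0.0104 and an adjusted p of 0.273, at 3 to 56 counts per library. Mr1 and H2-T24 had log2 fold changes of 0.47 and 0.53 and Fcgrt, an antibody receptor of class I fold, had -0.38, with adjusted p of 0.555 to 0.693. Among the 82 tested genes of the pathway lists, H2-Q5, H2-Q6 and H2-Q7 were those most correlated with Nlrc5, with r of 0.96, 0.96 and 0.94 over the 10 tumors. KP 5 was the lowest and KP 2 the highest tumor for all 3, and they share much of their sequence, so they are not separate observations. They were picked after their values were seen.

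Of the class II chains and loading factors, 0 of 12 tested passed the adjusted threshold in limma-voom. An unadjusted p under 0.05 was found for 1 of the 12, against 11.6% of all tested genes. Ctsl, cathepsin L, a protease that can cut the invariant chain in epithelial cells, was at 305 to 596 CPM in KP and 212 to 275 CPM in KPG1, with no overlap of the groups, where 1.76% of all tested genes did not overlap and were lower in KPG1. Its log2 fold change was -0.80 ± 0.17 (SE), with an unadjusted p of 0.000591 and an adjusted p of 0.0961 in limma-voom. In DESeq2 it was -0.84 with an adjusted p of 0.000948. Ctss, cathepsin S, the main such protease of leukocytes, had -0.33 with an adjusted p of 0.712. H2-DMa and H2-DMb1, the chains of the peptide exchanger, had 0.50 and 0.36, with adjusted p of 0.667 and 0.738, and Sppl2a, which clears the remnant of Cd74 from membranes, had 0.24 with an adjusted p of 0.695. H2-DMa and H2-DMb1 had r of 0.98 and 0.97 with H2-Ab1.

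Of the factors that bind the promoter module, 0 of 7 passed the adjusted threshold in limma-voom. Creb1 and Nfya, 2 of the 7, had an unadjusted p under 0.05, against 11.6% of all tested genes. Creb1 was 0.50 ± 0.15 (SE) higher on the log2 scale, with an adjusted p of 0.236 and overlapping groups, and without KP 5 it was 0.59 with an adjusted p of 0.0436. With a weight per library Creb1 was at 0.63 with an adjusted p of 0.0283, and with the sample number as covariate at 0.26 with an adjusted p of 0.648. Nfya, a subunit of NF-Y, was 0.27 ± 0.10 (SE), with an adjusted p of 0.322, from 6.21 to 6.42 log2 CPM in KP and from 6.53 to 6.70 in KPG1, without overlap, where 1.05% of all tested genes did not overlap and were higher in KPG1. Nfyc and Rfxap had 0.21 and 0.23, with adjusted p of 0.545 and 0.654.

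Interferon genes had no common direction. In the interferon gamma signal, 0 of 8 tested passed the adjusted threshold in limma-voom, 2 were fitted higher and 6 lower, and the median log2 fold change was -0.27. Ifngr1, a chain of the receptor, was -0.39 ± 0.14 (SE), with an adjusted p of 0.316 and no overlap of the groups, where 1.76% of all tested genes did not overlap and were lower. Socs1 and Jak2 had -0.53 and -0.27, with adjusted p of 0.561 and 0.563, and Ifng itself was too low to test. Of the 20 response genes 0 passed in limma-voom and 2 had an unadjusted p under 0.05, against 11.6% of all tested genes. These were the factor Irf7 at -0.74 and the chemokine Cxcl10 at -1.68, with adjusted p of 0.366 and 0.396. In DESeq2 Cxcl10 was at -2.29 with an adjusted p of 0.0151. Cxcl10 was highest in KP 1, the tumor lowest in class II. Oas1a and Cxcl9 had 1.03 and 1.08, with adjusted p of 0.489 and 0.545. Of the costimulation and checkpoint ligands, 0 of 7 tested passed either threshold in limma-voom, and the lowest p was that of Icosl at -0.69, with an adjusted p of 0.570. Cd274, the gene of PD-L1, had -0.31, Cd80 had -0.35 and Vtcn1 had -0.59, with adjusted p of 0.747 to 0.822.

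**Figure D4:**
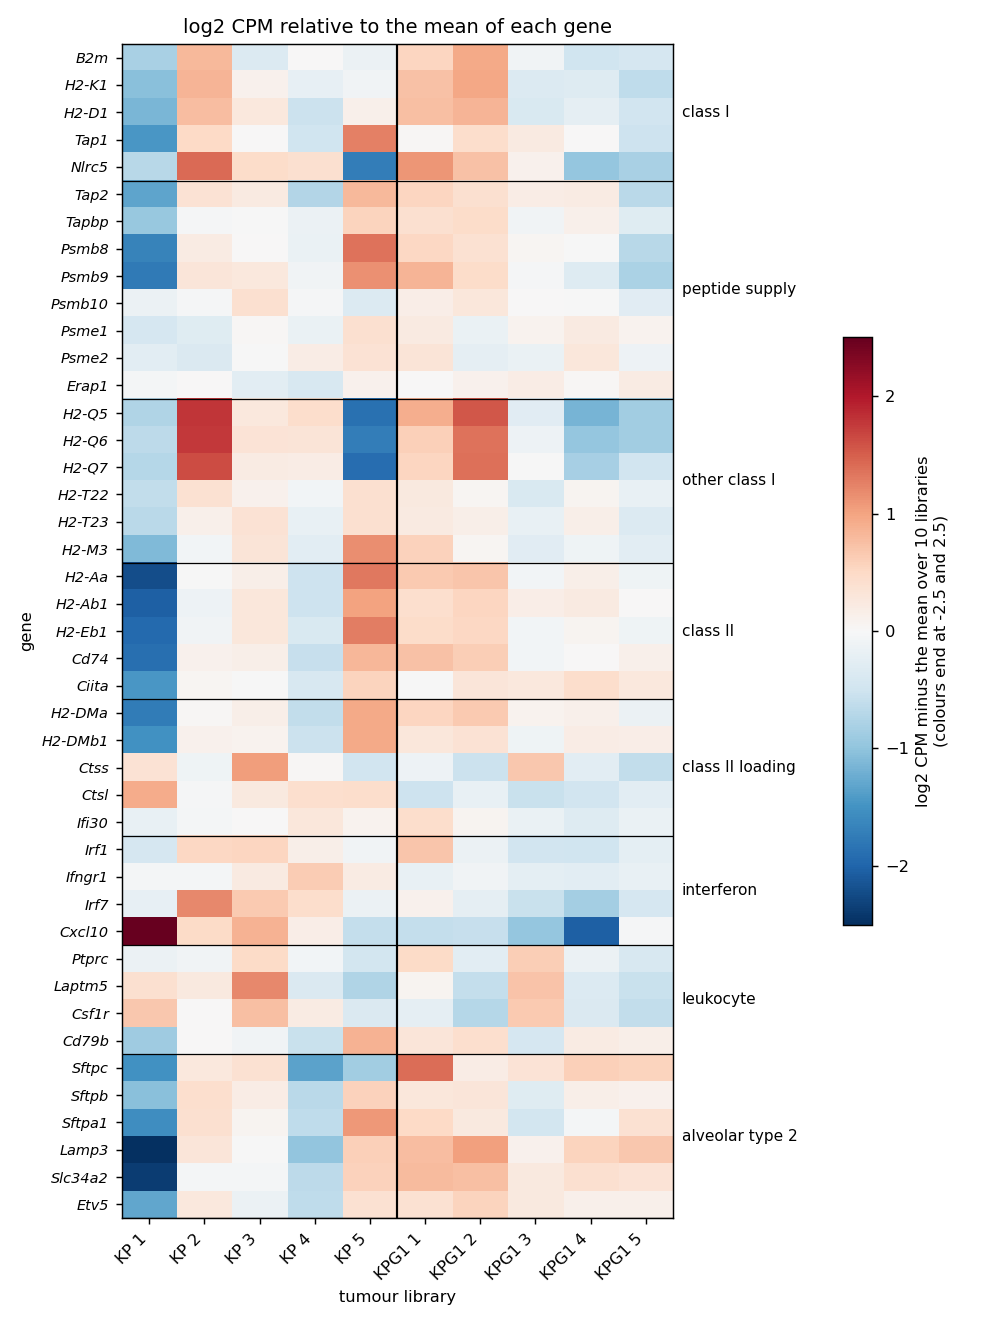
Log2 CPM of pathway and marker genes minus the mean of each gene over the 10 libraries, with genes in rows, tumors in columns and red for above the mean. The KP 1 column is blue and the KP 5 column red over class II, Tap1, Psmb8 and the loading chains H2-DMa and H2-DMb1, while the KP 5 column is blue for Nlrc5, H2-Q5, H2-Q6 and H2-Q7.

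The genes outside all lists whose pattern was most like that of H2-Ab1, by Pearson's r over the 10 libraries among 12748 genes, were Tbkbp1 (0.97), Tesk2 (0.96), Sh3bp1 (0.96), Bsg (0.96) and Naprt1 (0.95). For H2-K1, Ablim3 (0.95), Mad2l2 (0.94), Med8 (0.93) and Hcfc1r1 (0.93) were among the 5 most alike. With all genes ranked, 5 of the 5 most like H2-Ab1 were H2-Aa, H2-DMa, H2-Eb1, H2-DMb1 and Cd74, and Ciita held rank 18. With 10 libraries and this many genes, values of this size are a description of these tumors.

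Some members share sequence space with other genes. In GENCODE M21, Patl2 overlaps B2m, Dexi overlaps Ciita and the long noncoding RNA 9330175E14Rik overlaps Nlrc5, each on the opposite strand, and the antisense gene Gm20513 overlaps H2-Eb1. The kit marks strand, but the strand setting of the counting is not given in the sources used here, so reads from such pairs may not be separated.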

How the data were processed

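RNA sequencing of 10 tumor samples, 5 KP and 5 KPG1, was analyzed. Per the labels and the study's methods, the authors prepared stranded mRNA libraries, sequenced single-end reads, trimmed them with Cutadapt, aligned them to mm10 with HISAT2 and counted reads per gene with featureCounts 1.4.4. The annotation release and the strand setting are not given in the sources used here. The deposited values are raw counts per gene, whole numbers without normalization, and all 390170 values of the joint table equaled those of the single files. The authors also deposited a log2 table made with TMM and voom, which was not used. The alleles engineered to initiate tumors and some genes, with their relations, are not reported here. Counts of a gene rise with its length and depth, and reads shared by similar class I genes may be lost or misassigned.

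Genes were filtered with filterByExpr, scaled with TMM factors of edgeR 4.0.16 and tested with voom and limma 3.58.1 in R 4.3.3, with genotype as the only term, two-sided, and Benjamini-Hochberg adjustment over 16216 genes at a threshold of 0.05. The study's filter on TPM was replaced because it needs its annotation. Log2 CPM used a prior count of 2, and intervals of 95%. Library totals were 32427029 to 49534284, and a count of 0 allows up to 3 counts in a library, counting error only. Relations used 100000 permutations, two-sided, over 8 gene pairs. Levels per kilobase and overlaps used GENCODE M21, and promoters used the 200 bases before the start. The fits were tested on simulated data. Alternatives were edgeR's quasi-likelihood test, DESeq2 1.42.0, RLE factors, no filter, a mean CPM of at least 20, a weight per library, the replicate number as a block, the sample number as a covariate and leaving out each library. Leaving out KP 1 and KP 5 together was added after the data were seen. The sample numbers were 1, 4, 5, 9 and 10 in KPG1 and 6, 11, 12, 15 and 16 in KP. Sample number and genotype thus largely go together, and the fit with both separates them poorly.

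The members and lists were chosen with earlier results of these data known. Genes named are the 10 members, of each pathway list the genes past the threshold and up to 4 with the lowest p, partner genes, H2-Ea-ps, marker genes, Slc2a1 and the 5 genes most like H2-Ab1 and H2-K1 among those whose log2 CPM averaged 1 or more. Other genes named are given as examples of a pattern, chosen after their values were seen.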

Additional observations from a re-analysis of the deposited data

Results flagged for a closer look

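The log2 CPM of H2-K1 minus that of Nlrc5 was 8.07 in KP 5 and between 5.84 and 6.11 in the other 4 KP tumors. The gap to the nearest tumor was 0.883 of the group's range, above Dixon's 95% critical value of 0.71 for 5 samples. In the 5 KPG1 tumors the difference was 5.99 to 7.09. Of 48 groups of 5 examined, this was the only 1 past the critical value, where chance gives about 2.4.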

How the results depend on the processing

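No member passed the threshold in any of the alternatives. The count of all genes past the threshold, 10 higher and 18 lower in KPG1, became 125 and 423 with DESeq2 and 51 and 177 with a weight per library. It became 4 and 1 with the replicate block and 4 and 4 with the sample number as covariate. It was 6 and 31 at a mean CPM of at least 20, 29 lower with edgeR, 31 lower without a filter and 44 lower without KP 1 and KP 5. Leaving out 1 library gave 3 to 71 higher and 1 to 223 lower. Without KP 5 there were 71 and 223, without KP 2 there were 12 and 25, and without any 1 of the other 8 libraries there were 3 to 5 higher and 1 to 4 lower. Some members changed sign, with the cause not tested. With a weight per library the log2 fold changes were -0.077 for B2m, -0.14 for H2-K1, -0.060 for H2-D1 and -0.59 for Nlrc5, and without KP 1 and KP 5 they were -0.084, -0.19, -0.078 and -0.68. For Tap1 and Nlrc5 they were -0.17 and -0.068 in edgeR and -0.18 and -0.076 in DESeq2. With the sample number as covariate Tap1 was at -0.60 and H2-Eb1 at -0.030, and Tap1 was at -0.0097 with the replicate block. Leaving out 1 library gave -0.031 to 0.41 for B2m, -0.089 to 0.38 for H2-K1, -0.053 to 0.42 for H2-D1, -0.28 to 0.41 for Tap1, -0.31 to 0.47 for Nlrc5 and -0.094 to 0.70 for H2-Eb1. The other class II members stayed above 0 in every alternative. The replicate numbers do not pair the tumors, since same-numbered tumors had correlations of -0.16 to 0.08 and none was closest to its own number. The sample number as covariate also turned Mr1 (-0.069), Sppl2a (-0.16), Rfxap (-0.053), Cd274 (0.0775), Cd80 (0.14) and Vtcn1 (0.31), none of them past the threshold, and Cd80 was -0.56 to 0.012 when 1 library was left out. The median of the promoter factors was 0.096 at a mean CPM of at least 20, -0.042 with the sample number and 0.094 without KP 1 and KP 5, and that of the costimulation and checkpoint ligands was 0.0775 with the sample number. With group means subtracted, r of Ptprc and H2-Ab1 was -0.0032. Without KP 1 and KP 5, r was 0.64 for Ciita and H2-Ab1 and 0.85 for Nlrc5 and H2-K1. Leaving out 1 library, r was 0.76 to 0.96 for Ciita and H2-Ab1, 0.65 to 0.865 for Nlrc5 and H2-K1, 0.15 to 0.82 for Sftpc and H2-Ab1, -0.14 to 0.28 for Ptprc and H2-Ab1 and -0.017 to 0.34 for Ptprc and H2-K1. With 5 tumors a group, the intervals of the members span both directions, and the least abundant member, Nlrc5, had 65 counts or more per library.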
